A study of Urocitellus parryii with 3 samples.

Results

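miR-23a, miR-27a, miR-23b, miR-27b and miR-24 are the mature miRNAs made from a pair of related gene clusters. They were followed in liver RNA of a hibernating rodent, Urocitellus parryii, the arctic ground squirrel. The members were chosen by name: spots that are not controls and carry the gene name mmu-miR-23a, mmu-miR-27a, mmu-miR-23b, mmu-miR-27b or mmu-miR-24. These are 5 of the 577 miRNA entries on the array, of which 567 are mouse miRNAs. All 5 were on the array, and all 5 were measured on all 3 arrays. Each had 2 probes, so they made up 10 probes and 100 spots per array.

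The study compared livers of 3 stages: post-reproduction, after the breeding season and outside hibernation, late torpor, the end of a bout of torpor, and early arousal, the start of rewarming from torpor. Total RNA of animals of the same stage was pooled in equal amounts, and 1 Agilent mouse miRNA array was hybridised per pool after Cy3 labelling, per the labels' protocol. The sample descriptions instead name a fraction of short RNAs, and which of these was labelled is not settled by the sources used here. The number of animals per pool, their age, sex and genetic background, and any treatment are not given in the sources used here. With 1 array per stage there was no replicate, so no test was made, and stage, pool and array cannot be told apart. The probes were designed for mouse miRNAs, and the squirrel's own sequences were not used here.

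As background, a miRNA is a short RNA that guides a silencing complex to messenger RNAs, mostly through the bases near its own start (the seed). In mammals the a cluster encodes miR-23a, miR-27a and a copy of miR-24 in a single primary transcript, and the b cluster encodes miR-23b, miR-27b and the other copy of miR-24. The a and b forms of miR-23 share a seed and differ little elsewhere, as do those of miR-27, and the mature miR-24 of both clusters is the same molecule. miR-27 is known to repress genes of lipid metabolism, miR-23 to repress mitochondrial glutaminase, and the clusters are abundant in endothelial cells among other cell types.

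The array's annotation places the clusters on different mouse chromosomes of the mm9 build. The probes of miR-23a match chromosome 8 from 86732465 to 86732482 and those of miR-27a match chromosome 8 from 86732630 to 86732646, so the a targets lie close together in the order miR-23a, miR-27a. The probes of miR-23b match chromosome 13 from 63401841 to 63401857 and those of miR-27b match chromosome 13 from 63402072 to 63402088. The probes of miR-24 are annotated on chromosome 13 from 63402563 to 63402580, next to the b members. The passenger strand of the other miR-24 copy, miR-24-2*, is annotated on chromosome 8 from 86732743 to 86732759, next to the a members. The signal of miR-24 therefore cannot be assigned to a cluster. In mouse the b cluster lies in an intron of a gene for an aminopeptidase (Aopep), while the a cluster lies between protein-coding genes. The probes' target stretches were 16 to 18 bases long. How far a probe for an a form also takes up the b form, or the reverse, was not tested.

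All members were well above background. Every kept spot of the 10 probes was marked well above background on every array (100%). The dimmest member probe, A_54_P1320 for miR-27a in early arousal, had a mean of 72.3 intensity units. The 99th percentile of the 672 negative control spots was 31.5 in post-reproduction, 11.9 in late torpor and 16.3 in early arousal. Single negative control spots reached 176, 86.0 and 57.3, so the brightest of them lay above the dimmest member spots (86.8 and 77.7) in post-reproduction and late torpor. The other end was probe A_54_P1007 for miR-23b in post-reproduction, with a mean of 915. As a check of the tissue, the brightest probe of miR-122, the main miRNA of hepatocytes, had 49887 intensity units in post-reproduction, 59409 in late torpor and 51255 in early arousal. Flagged outlier spots were left out, which removed 5, 3 and 2 of the 100 member spots in the same order. Levels of different probes depend on the probe and were not set against each other.

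In both stages of hibernation the a cluster was lower than in post-reproduction, and lower than the b cluster in the same measure. On the reported scale the b cluster was close to its post-reproduction level. miR-23a was 1.19-fold lower in late torpor and 1.32-fold lower in early arousal, and miR-27a was 1.19-fold and 1.45-fold lower. miR-23b was at 1.01-fold and 1.05-fold of its level in post-reproduction and miR-27b at 1.06-fold and 0.999-fold. miR-24, which both clusters make, lay between them at 0.955-fold and 0.896-fold. For these values each array was divided by the 75th percentile of its intensities, taken over probes that were detected on the 3 arrays. The gap between the a and the b forms kept its direction under each of the 14 other processing choices tried. Not all of these could move it. Choices that only rescaled whole arrays for these members left the gap unchanged by construction. So did the authors' deposited table, which held the same intensities. The level of each member on its own depended on the scaling, and all 5 were lower than in post-reproduction under 7 of the other choices in each hibernation stage. Under these choices miR-23b reached -0.38 and miR-27b -0.31 on the log2 scale in late torpor, where miR-23a and miR-27a were each at -0.65. In early arousal miR-23b reached -0.30 and miR-27b -0.37, where miR-23a was at -0.77 and miR-27a at -0.90.

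The a cluster was described first by its spots. Probe A_54_P1311 for miR-23a had unscaled spot intensities from 221 to 243 with a median of 230 in post-reproduction (8 spots). It had 155 to 175 with a median of 167 in late torpor and 141 to 164 with a median of 150 in early arousal (10 spots each). The ranges of post-reproduction and each hibernation stage did not overlap, and those of late torpor and early arousal did. Probe A_54_P4383, also for miR-23a, had medians of 789, 587 and 529 in post-reproduction, late torpor and early arousal, with ranges of 740 to 813, 566 to 608 and 506 to 564. Here no range overlapped another.

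For miR-27a the steps went the same way and were larger in early arousal. Probe A_54_P1320 ranged from 113 to 125 with a median of 117 in post-reproduction, from 77.7 to 87.8 with a median of 84.2 in late torpor and from 64.5 to 76.6 with a median of 72.9 in early arousal. Probe A_54_P4385 ranged from 336 to 358 (median 350.1), from 250.1 to 275 (median 260.4) and from 199 to 228 (median 209) in the same order. No range of either miR-27a probe overlapped that of another stage.

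On the scaled log2 scale the level of miR-23a was 0.092 in post-reproduction, -0.16 in late torpor and -0.30 in early arousal. Its log2 difference was -0.26 ± 0.02 (standard error, SE, from spots) in late torpor and -0.40 ± 0.02 in early arousal, each against post-reproduction. Its probes gave -0.29 and -0.23 in the first comparison and -0.42 and -0.38 in the second. Early arousal lay below late torpor by less, with -0.14 ± 0.02, a sign that turned with 2 other scalings. The 95% interval of the fold from spots was 1.17 to 1.22 for late torpor and 1.29 to 1.35 for early arousal. All such errors cover the spread of spots on an array and not the spread between animals or pools.

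The scaled log2 level of miR-27a was -0.98 in post-reproduction, -1.23 in late torpor and -1.51 in early arousal. Its log2 difference from post-reproduction was -0.26 ± 0.01 in late torpor and -0.53 ± 0.02 in early arousal, with 95% intervals of the fold of 1.17 to 1.22 and 1.41 to 1.48. Early arousal was lower than late torpor by -0.28 ± 0.02, with probes at -0.23 and -0.33. miR-27a was thus lower in early arousal than in late torpor on both probes, and it was so under each of the other processing choices, from -0.52 to -0.067. In late torpor miR-23a and miR-27a differed from each other by 0.00087 ± 0.02 in their log2 difference from post-reproduction. In early arousal miR-27a was lower than miR-23a in that measure by -0.14 ± 0.02. The b cluster also differed by number, with miR-27b minus miR-23b at 0.075 ± 0.02 in late torpor and -0.073 ± 0.02 in early arousal. In early arousal against late torpor, miR-27 minus miR-23 was -0.137 ± 0.03 in the a cluster and -0.147 ± 0.02 in the b cluster.

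**Figure D1:**
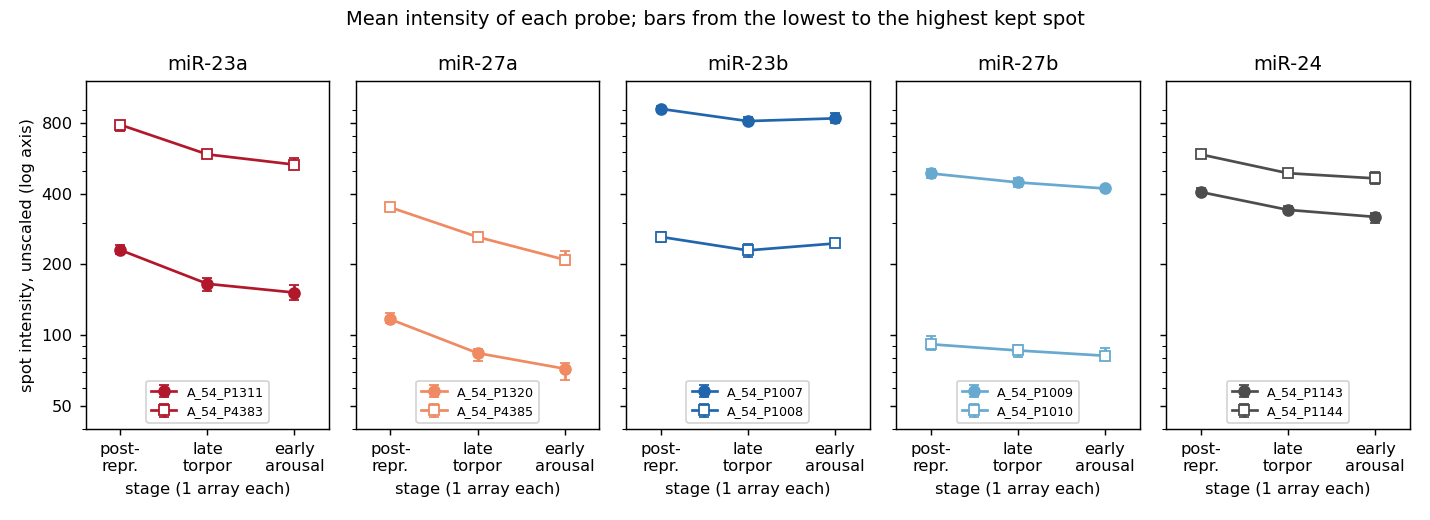
Unscaled spot intensity on a log axis for the 2 probes of each of miR-23a, miR-27a, miR-23b, miR-27b and miR-24 in the 3 stages, 1 array each; points are means and bars run from the lowest to the highest kept spot. Probe A_54_P4385 for miR-27a goes from 349 in post-reproduction to 262 in late torpor and 210 in early arousal, while A_54_P1009 for miR-27b goes from 487 to 446 and 420.

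The b cluster showed smaller steps. Probe A_54_P1007 for miR-23b ranged from 891 to 939 with a median of 915 in post-reproduction, from 790 to 845 with a median of 810 in late torpor and from 793 to 881 with a median of 827 in early arousal. Probe A_54_P1008, the other miR-23b probe, ranged from 249.6 to 274 (median 263), from 214 to 244 (median 229.9) and from 236 to 253 (median 246) in that order. Before scaling, the post-reproduction spots of both miR-23b probes lay above those of late torpor. They also lay above those of early arousal for A_54_P1007, but not for A_54_P1008. After scaling, the spots of every b probe overlapped between every pair of stages.

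For miR-27b, probe A_54_P1009 had medians of 488 in post-reproduction, 446 in late torpor and 419 in early arousal. Its ranges were 464 to 508, 427 to 467 and 412 to 429.6, and only those of post-reproduction and early arousal did not overlap. Probe A_54_P1010 had medians of 92.5, 87.4 and 80.9, with ranges of 86.8 to 99.5, 81.3 to 90.8 and 78.8 to 88.7. The spots of this dimmer probe overlapped between all stages even before scaling.

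On the scaled log2 scale miR-23b was at 0.297, 0.306 and 0.37 in post-reproduction, late torpor and early arousal. Its log2 difference from post-reproduction was 0.0087 ± 0.01 in late torpor, with a 95% interval of the fold of 0.987 to 1.03, and 0.071 ± 0.01 in early arousal, with an interval of 1.03 to 1.07. The scaled log2 level of miR-27b was -0.92, -0.83 and -0.92, which gives differences of 0.084 ± 0.02 in late torpor and -0.0015 ± 0.01 in early arousal. Early arousal against late torpor was 0.062 ± 0.01 for miR-23b and -0.085 ± 0.02 for miR-27b. These signs turned with the scaling: miR-23b was at -0.19 with the 75th percentile over all floored probes, and miR-27b at 0.12 with that percentile without a floor and 0.067 with the median of detected probes. The small differences of the b members from post-reproduction depended on it too. Without scaling miR-23b was at -0.18 and miR-27b at -0.11 in late torpor, and at -0.11 and -0.19 in early arousal.

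miR-24 is known for repressing cell cycle genes. Its probe A_54_P1143 ranged from 396 to 421 in post-reproduction, from 330 to 356 in late torpor and from 299 to 331 in early arousal, with medians of 402, 341 and 321. Probe A_54_P1144 ranged from 579 to 595, from 472 to 508 and from 440 to 494, with medians of 585, 489 and 468. In late torpor and early arousal the unscaled spots of each miR-24 probe overlapped, and both stages lay below post-reproduction.

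The scaled log2 level of miR-24 was 0.29 in post-reproduction, 0.22 in late torpor and 0.13 in early arousal. Its log2 difference from post-reproduction was -0.067 ± 0.01 in late torpor and -0.16 ± 0.01 in early arousal. Over the other processing choices it ran from -0.46 to -0.038 in late torpor and from -0.53 to -0.12 in early arousal, with -0.26 and -0.34 without scaling. The mean log2 difference of the a members was -0.256 and -0.46 in these comparisons, and that of the b members 0.046 and 0.035. miR-24 lay above the a mean by 0.19 ± 0.01 and 0.31 ± 0.02 and below the b mean by -0.11 ± 0.01 and -0.19 ± 0.02. Against late torpor, early arousal had a difference of -0.092 ± 0.01 in miR-24, again between the means of -0.21 for the a and -0.011 for the b members. The sign for miR-24 turned with 2 other scalings, to 0.12 and 0.060.

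No member passed the rule of size in any comparison. Under this rule a log2 difference had to reach 1 in size (2-fold), exceed 2 SE and have 1 sign over the miRNA's probes. Over all 135 measured mouse miRNAs it was passed by 2.22% in late torpor against post-reproduction, 3.7% in early arousal against post-reproduction and 2.96% in early arousal against late torpor. Split by direction, 2.22% were higher and 0% lower in the first comparison, 2.96% and 0.741% in the second and 1.48% each way in the last. The 2.22% of the first comparison were the 3 red blood cell miRNAs miR-144, miR-451 and miR-486. The members' median log2 difference was -0.067, -0.16 and -0.092 in these comparisons, beside 0.13, 0.062 and -0.094 over all measured miRNAs. miR-27a was the lowest of the 5 in early arousal against post-reproduction, where 9 of the 135 measured miRNAs were lower still. In the same comparison 18 were lower than miR-23a, 41 lower than miR-24, 59 lower than miR-27b and 69 lower than miR-23b. The b members thus lay near the middle of all measured miRNAs in early arousal, and the a members in the lower part.

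A finer count used the spots themselves. In late torpor, all scaled spots lay below those of post-reproduction for 4 of the 10 member probes, beside 11.8% of the 246 measured mouse probes, and these were the 4 probes of the a cluster. In early arousal against post-reproduction this held for 6 of the 10, the a probes and those of miR-24, beside 21.1%. Between late torpor and early arousal it held for 4 of the 10, beside 26%. These were both miR-27a probes, A_54_P4383 for miR-23a and A_54_P1143 for miR-24. No member probe had all its spots higher in any comparison, beside 35.4%, 30.9% and 9.35% of the measured probes in the same order. Spots of a probe share an array and are not replicates of a stage.

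**Figure D2:**
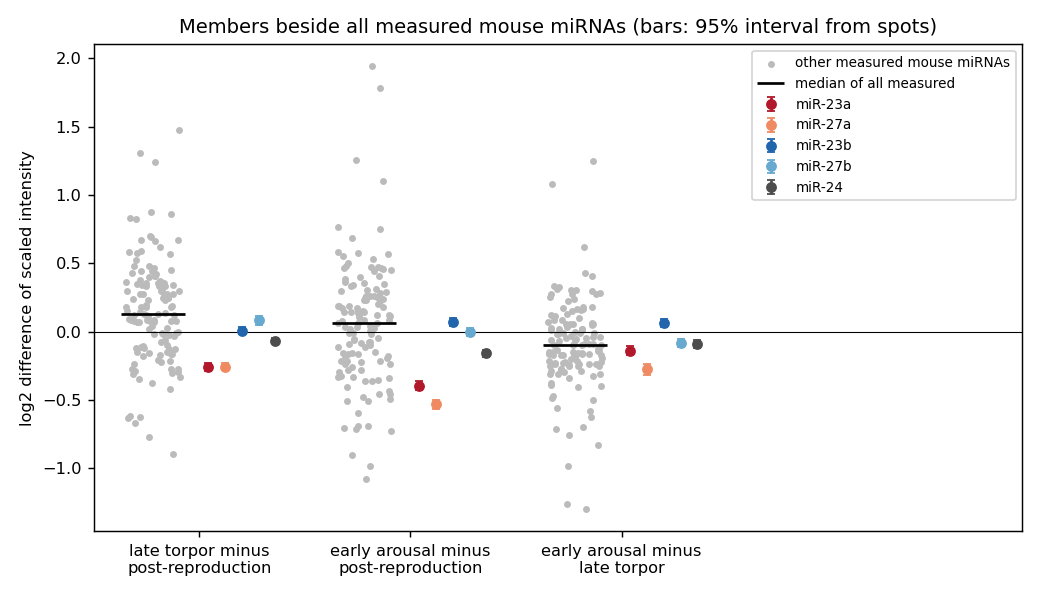
Log2 difference of scaled intensity (vertical axis) in the 3 comparisons for miR-23a, miR-27a, miR-23b, miR-27b and miR-24, with 95% intervals from spots, beside the other measured mouse miRNAs in grey and the median of all 135 as a line. In early arousal against post-reproduction miR-23a lies at -0.40 and miR-27a at -0.53, while miR-23b and miR-27b lie at 0.071 and -0.0015.

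The comparison of the a with the b forms is the one in which a shift of a whole array cancels. The log2 difference of miR-23a minus that of miR-23b was -0.27 (95% interval from spots -0.31 to -0.22) in late torpor against post-reproduction and -0.47 (-0.51 to -0.43) in early arousal against post-reproduction. For miR-27a minus miR-27b it was -0.34 (-0.38 to -0.297) and -0.53 (-0.58 to -0.48). Relative to its b partner, miR-23a was therefore 1.20-fold lower in late torpor and 1.38-fold lower in early arousal than in post-reproduction, and miR-27a was 1.27-fold and 1.44-fold lower. Early arousal against late torpor gave -0.202 (-0.25 to -0.16) for miR-23 and -0.19 (-0.24 to -0.14) for miR-27. The latter was -0.035 after quantile normalization and -0.12 with normexp background correction.

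Each a probe was also set against each b probe of the same number, which gives 4 combinations per pair. All combinations were below 0 in each comparison. For miR-23 they ran from -0.30 to -0.23 in late torpor and from -0.51 to -0.43 in early arousal, each against post-reproduction. For miR-27 they ran from -0.39 to -0.29 and from -0.58 to -0.48. Between the hibernation stages the miR-27 combinations spread most, from -0.25 to -0.14, and the miR-27a probes differed by 0.101 in that comparison.

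The mean over both numbers, a minus b, was -0.302 ± 0.01 in late torpor and -0.499 ± 0.02 in early arousal against post-reproduction, and -0.196 ± 0.02 in early arousal against late torpor. Comparisons that share the post-reproduction array share its error, so their values are given side by side and not as separate support. With spots of the upper part of the arrays the gap in early arousal against post-reproduction was -0.45 for miR-23 and -0.58 for miR-27, and with those of the lower part it was -0.49 and -0.49. This split by position was chosen after the data were examined.

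**Figure D3:**
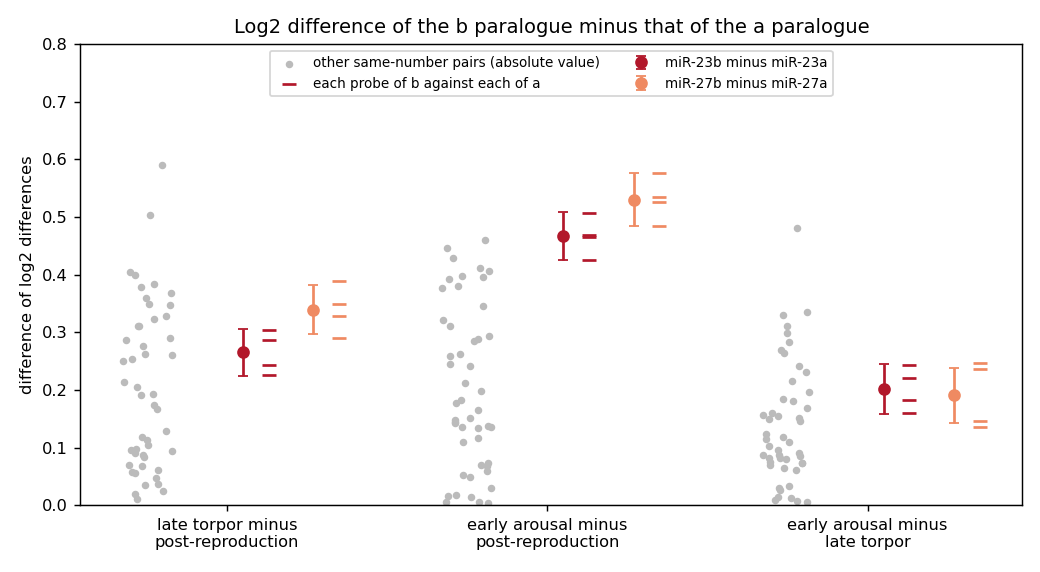
Difference of log2 differences (vertical axis) in the 3 comparisons: that of the b form minus that of the a form for miR-23 and miR-27, so that a positive value means a lower a form. Points have 95% intervals from spots, dashes are single probe combinations, and grey points are absolute values for the 48 other same-number pairs, which reach 0.46 in early arousal against post-reproduction.

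Paralogues with the same number and another letter, such as let-7a and let-7b, were used as a measure of how far such pairs diverge on these arrays. Names with a star or an arm suffix, such as miR-125a-5p and miR-125b-5p, were left out, so the shares do not cover them. There were 48 other pairs from 30 measured miRNAs of 10 numbers, and many pairs share a miRNA. Most of the pairs were within let-7 or within miR-30, so the shares below mainly describe these families. Their absolute difference of log2 differences in early arousal against post-reproduction had a median of 0.17 and a maximum of 0.46. Pairs at least as far apart as miR-23a and miR-23b made up 0% of them, and so did pairs at least as far apart as miR-27a and miR-27b. The next pair was let-7b minus let-7f at -0.46. The share depended on the processing. After quantile normalization 11 of the 48 pairs were further apart than either pair of the clusters, and 4 were with normexp background correction. With the brightest probe only, or with outlier spots kept, 1 of the 48 was further apart than the miR-23 pair. With the spots of the lower part of the array 3 of the 48 were further apart than each.

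In the other comparisons more of such pairs were as far apart. In late torpor against post-reproduction 35.4% of the other pairs were at least as far apart as the miR-23 pair and 20.8% as the miR-27 pair, with a median of 0.19. The count for miR-23 went from 17 to 28 of the 48 after quantile normalization. That for miR-27 went from 10 to 5 with the upper and 18 with the lower part of the arrays. The widest were miR-30b minus miR-30e at -0.59, miR-30c minus miR-30e at -0.503 and let-7d minus let-7i at -0.405. Between the hibernation stages 22.9% were at least as far apart as the miR-23 pair and 25% as the miR-27 pair, with a median of 0.11. The count for miR-27 went from 12 to 40 of the 48 after quantile normalization and to 22 with normexp. There the widest were miR-30b minus miR-30e at 0.48, miR-19a minus miR-19b at -0.34 and miR-30b minus miR-30d at 0.33.

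The measured miRNAs whose profile over the 3 stages lay nearest to the mean of the 5 members were found by distance over the 3 scaled log2 values, each profile centred on its own mean. Of 130 other miRNAs, miR-127 was nearest with a distance of 0.035, before miR-107 with 0.043 and miR-199b* with 0.057. Their log2 differences in early arousal against post-reproduction were -0.24, -0.16 and -0.28. Of the members themselves, miR-24 lay nearest to the mean at 0.032, and miR-27a farthest at 0.23. Such a mean lies between the clusters and describes no single member other than miR-24.

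The passenger strands of the clusters, the strands that are mostly degraded after processing, were not detected. Of the 6 names looked for, miR-24-1*, miR-24-2*, miR-27a* and miR-27b* had probes on the array, 12 in all, and none was detected on any array. Their probe means ran from -1.77 to 7.24 intensity units in post-reproduction, from -2.62 to 6.58 in late torpor and from -2.55 to 5.96 in early arousal. The brightest on every array was a probe of miR-24-1* from the b cluster. Probes for 10 viral miRNAs, which served as background, reached 26.6, 26.5 and 22.2 on the same arrays, and 4, 5 and 4 of these 40 probes were detected. The passenger strands that would tell the copies of miR-24 apart thus lay within the range of the viral probes.

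Markers of other cell types in the liver differed in mixed ways. Against post-reproduction, 88 of all 135 measured miRNAs were higher in late torpor. In early arousal 75 of the 135 were higher and 60 lower. The 4 endothelial miRNAs were all measured, none passed the rule of size, and their median log2 difference was 0.024 in late torpor and -0.11 in early arousal against post-reproduction. Of these, miR-126-3p (0.35 and 0.25) and miR-126-5p (0.27 and 0.36) were higher in both stages. miR-221 (-0.23 and -0.48) and miR-222 (-0.42 and -0.71), another cluster of paralogues, were lower in both; miR-221 was named after its values were seen. Of the 5 measured mesenchymal miRNAs 3 were lower in early arousal than in post-reproduction, from miR-199a-5p at -0.36 to miR-214 at 0.062. The value of miR-214 had an SE from spots of 0.063, and 1 of its 2 probes was detected. The 6 measured leukocyte miRNAs ran from miR-146a at -0.49 to miR-181a at 0.47 in that comparison, and in late torpor 5 of the 6 were higher. The 3 red blood cell miRNAs were higher in both stages, by 1.24 to 1.48 in late torpor and 0.18 to 0.55 in early arousal. Over the reported setting and the 14 others, the endothelial median was below 0 in 7 of 15 in late torpor and in 14 of 15 in early arousal, the mesenchymal in 13 and 11 and the leukocyte in 1 and 14. The red blood cell median was above 0 throughout. The part of these cell types in the members' values was not tested. In bulk RNA, fewer cells of a type and less RNA per cell cannot be told apart.

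Of the 6 measured miRNAs on the hepatocyte list all were higher in late torpor and 5 in early arousal than in post-reproduction. Their medians were 0.29 and 0.15, with miR-148a at -0.014 in early arousal. These were miR-122, miR-192, miR-194, miR-148a, miR-193 and miR-365. The highest values were those of miR-193 in late torpor (0.47) and miR-365 in early arousal (0.48). How specific each is to hepatocytes was not tested. Over all 135 measured miRNAs 88 and 75 were higher, with medians of 0.13 and 0.062. The sign of the hepatocyte median depended on the processing: it was below 0 in 2 of 15 settings in late torpor and in 6 of 15 in early arousal. Of the list of miRNAs tied to lipid metabolism, to which miR-27 is often added, 5 of 6 were measured. Early arousal was lower than post-reproduction in 4 of the 5, beside 60 of all 135, with a median of -0.22 for the list. miR-378 was at -1.08, past the rule of size, and miR-33, which lies in a gene for a regulator of sterol synthesis, was at 0.031 ± 0.10. The brightest probe of miR-33 had means of 13.2, 13.9 and 11.9 in post-reproduction, late torpor and early arousal, within the range of the viral probes. The list's median was below 0 in each of the 15 settings in both stages. In late torpor the list ran from miR-378 at -0.77 to miR-378* at 0.28. The brightest probe of miR-378* also lay within the viral range, with 15.9, 16.9 and 12.0 in post-reproduction, late torpor and early arousal.

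The scaling moved the level of all members. The median of all measured miRNAs shifted by -0.39 with the 75th percentile over all probes without a floor in late torpor against post-reproduction, and by -0.37 with the same percentile after the floor in early arousal against post-reproduction. The members were therefore also set against the median of all measured miRNAs. In late torpor against post-reproduction miR-23a and miR-27a were each at -0.39 log2 units from it, with miR-24 at -0.20, miR-23b at -0.12 and miR-27b at -0.048. In early arousal the values were -0.46 for miR-23a, -0.59 for miR-27a, -0.22 for miR-24, 0.0088 for miR-23b and -0.064 for miR-27b. Over the reported setting and the 14 others, miR-23a stayed between -0.503 and -0.41 in this measure in early arousal, miR-27a between -0.61 and -0.44 and miR-24 between -0.26 and -0.18. miR-23b ran from -0.104 to 0.032, and was below the median in 3 of the 15. miR-27b ran from -0.13 to -0.014 and was below it in all 15. In late torpor both b members were below it in all 15, miR-23b from -0.21 to -0.11 and miR-27b from -0.11 to -0.018. In early arousal against late torpor the values were -0.045 for miR-23a, -0.18 for miR-27a, 0.0024 for miR-24, 0.16 for miR-23b and 0.0090 for miR-27b. There miR-23a ran from -0.11 to -0.021 over the 15 settings and miR-27a from -0.197 to -0.12. miR-23b lay above the median in all 15, from 0.10 to 0.18, while miR-27b was below it in 3 and miR-24 in 4.

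**Figure D4:**
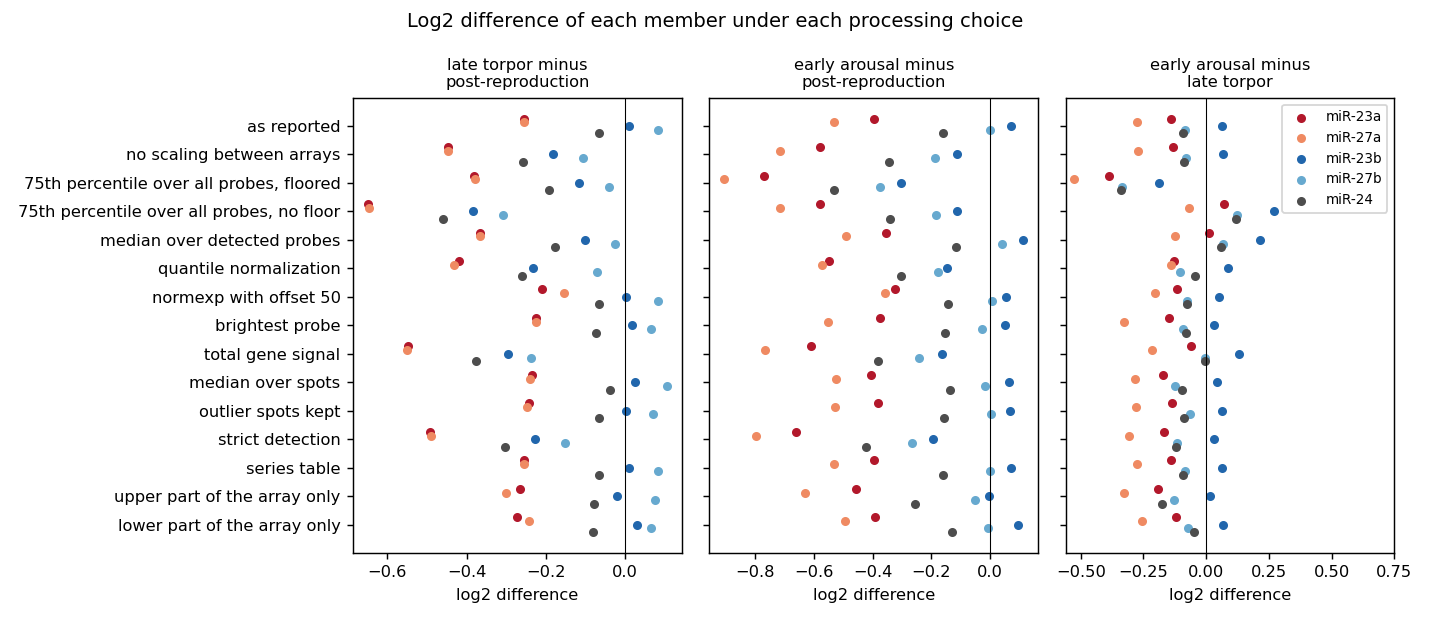
Log2 difference (horizontal axis) of each of the 5 miRNAs under the reported setting and 14 other processing choices (rows), in 1 panel per comparison. miR-23a and miR-27a lie left of 0 in every row of the comparisons with post-reproduction, to the left of miR-23b and miR-27b, which cross 0.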

How the data were processed

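Liver RNA of 3 stages was measured on 3 mouse miRNA arrays, 1 pool and 1 array per stage, and samples were grouped by the stage in the labels. Agilent Feature Extraction 9.5.3.1 was used for the scans, per the submitters' processing notes. The deposited intensity of a spot has a spatial trend subtracted, per the file headers, with no step between arrays. Well-above-background and outlier flags came from the same files. For each of the 12493 spots per array, the intensity in the authors' deposited table of the series equalled the scan intensity used here. As an alternative, that table therefore repeated the reported setting.

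Control spots and flagged outliers were left out. A probe's value was its spots' mean log2 intensity, with spots at or below 0 set to the array's lowest spot well above background (8.49 to 10.7). Arrays were scaled by the 75th percentile of the 250 probes with more than 50% of spots well above background on the 3 arrays: 398 for post-reproduction, 349 for late torpor and 350.4 for early arousal. A miRNA's value is the mean of its probes. Intervals use the spot SE; having 3 arrays limits precision. The calculation was tested on simulated data with planted changes past the rule of size, larger than those of the members. These data held the spread of spots only, with none between pools or arrays. Named miRNAs are the 5 members, their star strands, the 3 nearest profiles, the 3 widest same-number pairs per comparison and the ends of fixed lists, plus values named to describe those lists. The members and lists were chosen with earlier results of these data known. Alternatives covered scaling, background correction (limma 3.58.1), probe and spot summaries, outlier flags, detection and position on the array. Mature sequences were not used here.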

Additional observations from a re-analysis of the deposited data

How the results depend on the processing

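No member passed the rule of size under any of the 14 alternatives. Few of all measured miRNAs passed it either, at most 4 as higher and 8 as lower in any comparison. The a form lay below the b form in each comparison under each alternative. Alternatives that only rescaled whole arrays for these members, and the authors' deposited table with the same intensities, could not change that gap. The upper and lower part of the arrays were alternatives chosen after seeing the data. No paired analysis was possible because each stage had 1 array and no replicate number. The a minus b gap of miR-23 was -0.19 (quantile) and -0.21 (normexp) in late torpor against post-reproduction, and -0.40 and -0.38 in early arousal against post-reproduction. That of miR-27 was -0.24 (normexp) and -0.29 (brightest probe) in the first, -0.39 (quantile), -0.36 (normexp) and -0.58 (upper part) in the second and -0.035 (quantile) and -0.12 (normexp) in early arousal against late torpor.

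Levels against post-reproduction moved with the scaling. In late torpor the members' median, miR-23b and miR-27b were -0.26, -0.18 and -0.11 without scaling, -0.19, -0.12 and -0.041 with the 75th percentile over all floored probes, and -0.46, -0.38 and -0.31 with no floor. They were -0.18, -0.10 and -0.027 with the median of detected probes, -0.26, -0.23 and -0.072 with quantile normalization, -0.38, -0.29 and -0.24 with the total gene signal and -0.30, -0.23 and -0.15 with strict detection. The median over spots gave a members' median of -0.038, and the upper part put miR-23b at -0.021.

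For early arousal against post-reproduction the members' median and miR-23b were -0.34 and -0.11 without scaling, -0.53 and -0.30 with the floored percentile, -0.34 and -0.11 with no floor, -0.30 and -0.15 with quantile normalization, -0.38 and -0.16 with the total signal, -0.42 and -0.19 with strict detection and -0.26 and -0.0050 with the upper part. The median alone was -0.12 with the median of detected probes and -0.13 with the lower part. miR-27b was 0.040 with the median of detected probes, 0.0060 with normexp and 0.0048 with outliers kept.

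Between the hibernation stages the members' median, miR-23a, miR-27b and miR-24 were 0.12, 0.070, 0.12 and 0.12 with no floor and 0.060, 0.013, 0.067 and 0.060 with the median of detected probes. The members' median was -0.34 with the floored percentile, where miR-23b was -0.19, -0.0045 with the total signal, -0.12 with the median over spots, -0.12 with strict detection and -0.18 with the upper part. The cause of these moves was not tested beyond the shift of the whole array, which cancels in the a minus b gap.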
